A study of Mus musculus with 18 samples.

Results

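The effect of knocking down Chst7 was compared between day 0 and day 3 of cardiac reprogramming, gene by gene, as a difference of differences. For each gene the difference between siChst7 and siControl at day 3 was set against the same difference at day 0. All 24514 genes of the deposited count table entered the rule, and 13802 had enough counts to be tested. The values compared come from 12 of the 18 libraries of the series. The day 1 libraries are given beside them and shared the fit.

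The cells were the iMGT-Myh6-eGFP-MEF line, mouse embryonic fibroblasts that express Mef2c, Gata4 and Tbx5 (MGT), 3 cardiac transcription factors, when given doxycycline. The line's name also carries a green fluorescent reporter of the cardiac gene Myh6. All groups were plated in reprogramming medium and transfected, either with an siRNA against Chst7 (siChst7) or with a control siRNA (siControl). The day 0 groups had no doxycycline. The day 3 groups had been given doxycycline at 1 µg/mL on day 0 and were taken 3 days later. Each of the 4 groups compared had 3 samples, which the labels call biological replicates, and each sample pooled 40 wells. A single cell line was used, and time since transfection and time since induction both differed between the days, so that their parts in any change cannot be told apart.

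Chst7 encodes a Golgi enzyme that adds sulfate to chondroitin sulfate chains, the sugar chains of many proteoglycans of the cell surface and the matrix. Fibroblasts that are forced to take on a cardiac program have to leave their own program, which in culture includes contractile stress fibres of the myofibroblast type, matrix production and inflammatory signalling. Smooth muscle type actins and their partners are controlled by serum response factor (SRF), which binds the CArG box, and interferon-stimulated genes by STAT and IRF factors, which bind the interferon-stimulated response element. A difference of differences can be 0 when a knockdown acts alike at both days, and it differs from 0 when an effect appears, fades, grows or changes sign.

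Total counts ran from 30590742 to 50021142 per library. The 3 siChst7 libraries of day 3 were the least alike: chi-square values of their counts, divided by the degrees of freedom, were 22.6 to 59.2 between pairs, against 2.96 to 5.48 in the other groups apart from siChst7 replicate 3 of day 0, which gave 15.2 and 15.6. In siChst7 at day 3 the ribosomal RNA precursor Rn45s took 1.96% of the counts of replicate 1, against 0.131% to 0.654% in all other libraries. The 5 genes of the list on poly-A selection and RNA quality summed to 6180 to 20000 CPM in that group and to 4160 to 5430 CPM in siControl at day 3 (CPM, the count divided by the scaled library total and multiplied by 1e6). Of the fibroblast markers, Pdgfra, Pdgfrb, Ddr2, Vim, Col1a1 and Col1a2 were measured and Thy1 did not pass the filter on low counts. Of the 6 macrophage, 5 endothelial and 6 epithelial markers tested, 1, 0 and 1 had a called difference between the days, and 2 of 7 neural markers had one called higher. Among all genes tested 38.8% had one called. The lists named 12, 10, 11 and 10 markers in this order. With so few of them tested, the counts cannot show whether such cells changed. The neural list summed to 336 to 343 CPM with siControl and 239 to 249 CPM with siChst7 at day 0, and to 657 to 690 CPM and 563 to 649 CPM at day 3. Its part in the results was not tested. With the RNA of whole cultures, fewer cells of a type and less RNA per cell cannot be told apart.

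Chst7 itself was low in every siChst7 library at both days (chromosome X, 20058963 to 20099991, GRCm38). At day 0 it had 19.7, 18.6 and 19.2 CPM with siControl and 0.238, 0.611 and 0.465 CPM with siChst7. At day 3 the values were 25.6, 23.8 and 25.9 CPM against 2.96, 1.87 and 1.64 CPM. The knockdown libraries of day 3 were all above those of day 0, and none reached a control library. The log2 fold change (log2FC) was -5.47 ± 0.18 at day 0 and -3.54 ± 0.15 at day 3, where ± gives the standard error. The difference between them was 1.93 ± 0.28 (edgeR adjusted p = 1.68e-05), so that the knockdown was weaker at day 3.

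The siChst7 effect differed between the days for 5356 of 13802 genes, 38.8% (edgeR's quasi-likelihood test with Benjamini-Hochberg adjusted p below 0.05, the threshold for a called gene throughout). It was called higher at day 3 for 2853 genes (20.7%) and lower for 2503 (18.1%). With libraries scaled by their totals alone, which moved the median of all genes from 0.01 to -0.10 on the log2 scale, the called genes were 35.7% higher instead of 53.3%. This share was 45.7% in a fit of the 12 libraries of days 0 and 3 and 45.4% with a correction for gene length. Without siChst7 replicate 3 of day 3 it was 45.2%, and without any other single library 52.4% to 53.7%. Which direction held more calls thus depended on the settings. Changes were mostly small, and 445 of the higher and 154 of the lower genes changed by at least 1 on the log2 scale.

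At each day separately, siChst7 against siControl called 13.9% of genes higher and 13.5% lower at day 0, 8.86% higher and 8.72% lower at day 1, and 23.1% higher and 21.6% lower at day 3. These shares are the background for the counts per day of every list below. Of 1900 genes called at both day 0 and day 3, 1026 had the same direction and 874 the opposite one. Across all tested genes the day 0 and day 3 effects were nearly unrelated, with a Pearson r of 0.06 and a Spearman rho of 0.04; genes are not independent replicates, and the 2 effects came from separate libraries. Most called differences came from genes with an effect called at 1 day only, 2833 at day 3 and 1166 at day 0. An effect that was not called is not shown to be absent. A further 264 were called at neither day, 78 had a larger and 141 a smaller effect of the same direction at day 3.

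All 874 genes with opposite effects also had a called difference between the days, and these are the reversals. Effects of opposite sign add up in the difference, so its call was nearly given once both were called. In 347 genes (2.51% of those tested) siChst7 was lower at day 0 and higher at day 3, and in 527 (3.82%) it was higher at day 0 and lower at day 3. The effects that chose them were modest, with medians of -0.28 and 0.29 on the log2 scale for the first group and 0.26 and -0.25 for the second. Only 36 and 20 genes had an effect of at least 0.5 at both days. Leaving out siChst7 replicate 2 of day 3 raised the reversals to 1439, of which 695 were from lower to higher; leaving out siControl replicate 2 or 3 of day 0 brought that direction down to 227 or 221.

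**Figure D1:**
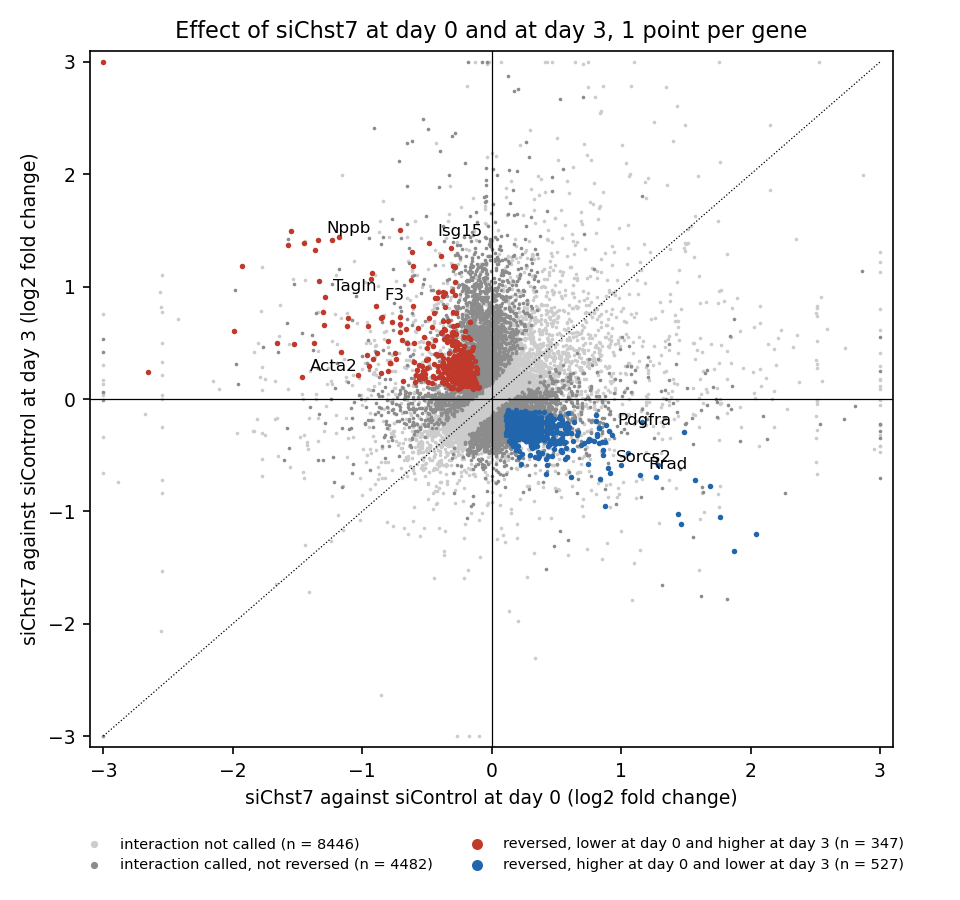
Effect of siChst7 at day 0 (horizontal axis) and at day 3 (vertical axis), each as log2 fold change against siControl of the same day, with 1 point for each of the 13802 genes tested and values beyond 3 (56 genes) drawn at the edge. The 347 genes in red turned from lower to higher, the 527 in blue from higher to lower, and the dotted line marks equal effects.

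The day 1 effect took no part in choosing the reversals, but the day 1 libraries shared the filter, scaling and spread of the fit. A fit of only the 12 libraries of days 0 and 3 gave 728 reversals, 202 of them from lower to higher. In that fit 74.4% of the reversals given above were reversals again. Of the 347 genes that went from lower to higher, 40 were called higher at day 1, 34 lower and 273 neither, with a median effect of -0.02. Of the 527 that went from higher to lower, 88 were called higher, 40 lower and 399 neither, with a median of 0.05. The shares called at day 1 were 11.5% higher and 9.80% lower in the first group and 16.7% and 7.59% in the second, beside 8.86% and 8.72% of all genes tested.

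The day 3 effect, and with it the difference, ran with gene length. The rank correlation of deposited gene length and the difference across genes was -0.29. In the shortest 20% of genes, up to 1587 bases, the median difference was 0.32, with 36.9% called higher and 4.93% lower. In the longest 20%, from 4868 bases, it was -0.10, with 11.3% higher and 30.1% lower. The 3 siChst7 libraries of day 3 each showed the trend against siControl, with rank correlations of -0.31, -0.25 and -0.33, and siChst7 replicate 3 of day 0 had 0.21. After a smooth length trend had been taken out of each library the correlation was 0.02, and 5294 genes were called, 2401 higher and 2893 lower. Of the calls made without the correction, 4402 kept call and direction, and 701 of the 874 reversals were reversals again. The part of RNA quality in this trend was not tested.

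**Figure D2:**
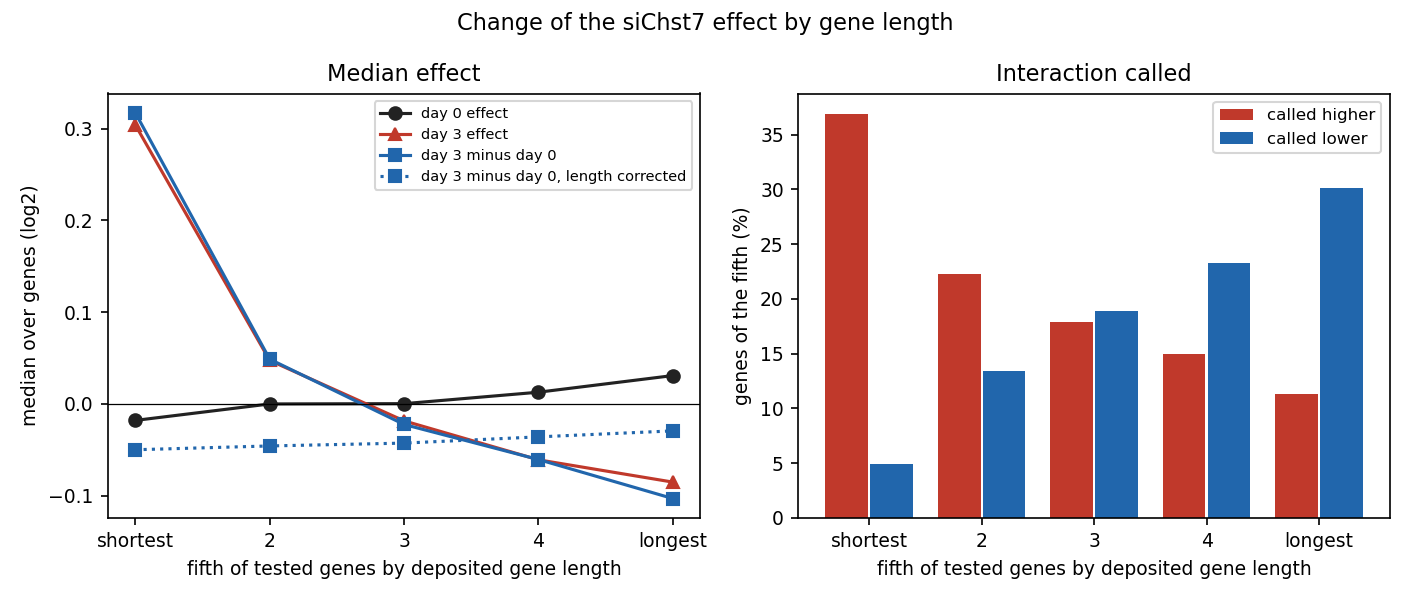
Left, median siChst7 effect (log2) at day 0, at day 3 and their difference, with and without length correction, in 5 equal groups of the tested genes by deposited gene length; right, percent of each group with a difference called higher (red) or lower (blue). The median difference fell from 0.32 in the shortest genes to -0.10 in the longest.

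The genes of the contractile myofibroblast list went from below the control level at day 0 toward it or above it at day 3. At day 0, siChst7 was called lower for 14 of 19 tested genes and higher for 0, and the median effect was -0.61. At day 3 it was called higher for 6 and lower for 4, with a median of -0.01. The difference was called higher for 15 genes and lower for 1 (Mylk), with a median of 0.55 against 0.01 over all genes tested. Of all genes tested 20.7% were called higher and 18.1% lower. The counts of the list with length correction were also 15 and 1. The 5 reversals were Tagln, Acta2, Actg2, Myl9 and Tpm4.

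Tagln encodes transgelin, an actin-binding protein of smooth muscle and myofibroblasts (chromosome 9, 45929628 to 45936058). At day 0 it had 219, 220 and 240 CPM with siControl and 95.1, 95.7 and 86.4 CPM with siChst7. At day 3 it had 255, 244 and 248 CPM with siControl and 446, 431 and 523 CPM with siChst7. The siControl libraries changed little between the days, while the siChst7 libraries went from below all controls to above all of them. The effect was -1.29 ± 0.06 at day 0 and 0.91 ± 0.06 at day 3, and the difference 2.20 ± 0.08 (edgeR adjusted p = 7.48e-14). At day 1 the groups overlapped, at 162 to 172 CPM and 170 to 176 CPM.

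Acta2, the smooth muscle alpha-actin that marks myofibroblasts, was higher at day 3 than at day 0 in both groups (chromosome 19, 34240336 to 34255585). At day 0 it had 1260, 1250 and 1370 CPM with siControl and 464, 440 and 500 CPM with siChst7. At day 3 the values were 2800, 2750 and 2850 CPM against 3160, 2890 and 3570 CPM. The groups did not overlap at either day, and siChst7 was the lower one at day 0 and the higher one at day 3. The difference was 1.66 ± 0.09 (edgeR adjusted p = 1.19e-11), but the day 3 effect alone, 0.20 ± 0.06, was not called without siChst7 replicate 3 of day 3 or in a fit of only 12 libraries.

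Actg2, the gamma smooth muscle actin, had 11.4, 10.2 and 12.0 CPM against 2.62, 2.49 and 3.37 CPM at day 0. At day 3 it had 13.4, 14.2 and 14.8 CPM against 19.1, 21.9 and 23.7 CPM. Its difference of 2.60 ± 0.15 was larger than those of Tagln and Acta2. Myl9, a regulatory myosin light chain, had 405, 412 and 441 CPM against 220, 213 and 211 CPM at day 0. At day 3 its values were 484, 441 and 479 CPM against 634, 526 and 677 CPM, again without overlap, and its day 3 effect of 0.39 ± 0.06 was not called with length correction. Tpm1 and Tpm2, tropomyosins of stress fibres and of muscle, had differences of 0.58 ± 0.05 and 0.73 ± 0.09, from effects of -0.61 and -0.60 at day 0 to -0.04 and 0.14 at day 3. Des and Synpo2 had no called difference, at -0.03 ± 0.15 and 0.28 ± 0.37.

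Targets of SRF and of the YAP coactivator also had lower effects at day 0 than at day 3, and the list shares Cnn1, Tpm1, Vcl and Flna with the contractile one. Of 21 tested genes, 17 were called lower at day 0 and 0 higher, with a median effect of -0.54. At day 3, 6 were called higher and 5 lower, and the difference was called higher for 17 and lower for 0 (at least 14 genes under each alternative, and at most 2 lower). The difference was called higher for 20.7% and lower for 18.1% of all genes tested. Ctgf, a secreted matricellular protein and YAP target, had 4380, 4350 and 4440 CPM against 2160, 2210 and 2460 CPM at day 0. At day 3 it had 1350, 1340 and 1340 CPM against 1540, 1720 and 1690 CPM. Its level was lower at day 3 than at day 0 in both groups, more so with siControl, and the difference was 1.24 ± 0.07 (edgeR adjusted p = 1.46e-11). Cyr61, a related target, went from an effect of -0.92 to 0.08, which was not called at day 3, and Srf from -0.63 to 0.05. Axl and Yap1 had no called difference, at 0.05 ± 0.06 and -0.06 ± 0.07.

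Promoters of reversing and list genes were searched for the CArG box, whose consensus reads alike on both strands. RefSeq promoter windows on GRCm38, 250 bases before to 50 after the start, were matched by symbol for 10511 of the tested genes, and 174 of them (1.66%) held the motif. It was present in 3 of 16 contractile genes with a window (Cnn2, Myl9 and Vcl), in 5 of 17 SRF and YAP targets (Actg1, Fhl2, Filip1l, Srf and Vcl), in 10 of 260 reversals from lower to higher (3.85%) and in 5 of 406 from higher to lower (1.23%). The lists hold genes known as SRF targets, so the shares are a description of these windows. The stretches around the motif of 3 reversing genes and of Srf are shown, with the CArG box in capitals and all bases upstream of the start. They lie at chr2:156775273-156775342 (plus strand), chrX:56779551-56779620 (plus), chr16:57549150-57549219 (plus) and chr17:46556185-46556274 (minus), in the order printed.
Myl9: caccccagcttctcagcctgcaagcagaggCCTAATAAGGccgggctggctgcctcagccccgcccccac
Fhl1: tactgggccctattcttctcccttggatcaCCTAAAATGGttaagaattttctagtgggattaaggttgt
Filip1l: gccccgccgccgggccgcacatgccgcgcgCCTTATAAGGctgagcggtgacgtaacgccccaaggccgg
Srf: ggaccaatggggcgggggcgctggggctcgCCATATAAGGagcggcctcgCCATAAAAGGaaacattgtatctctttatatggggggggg
Filip1l, a gene of actin filament turnover with this match, went from 225, 231 and 241 CPM against 158, 156 and 164 CPM at day 0 to 105, 96.3 and 99.8 CPM against 123, 110 and 116 CPM at day 3. Both groups were lower at day 3, and their order changed without overlap at either day.

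Of 22 tested genes of TGF-beta ligands, receptors and targets, 5 were called higher and 6 lower, shares not far from the 20.7% and 18.1% of all genes. Inhba, the activin A subunit, reversed from lower to higher, with effects of -0.79 and 0.32. Tgfb2, a ligand, stayed lower at both days, at -1.29 and -0.21. Receptors and a signal transducer, Tgfbr1, Tgfbr3 and Smad3, reversed the other way, with differences of -0.48, -0.54 and -0.53. Pmepa1 and Ltbp1 had no called difference, at -0.01 ± 0.08 and 0.04 ± 0.06.

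**Figure D3:**
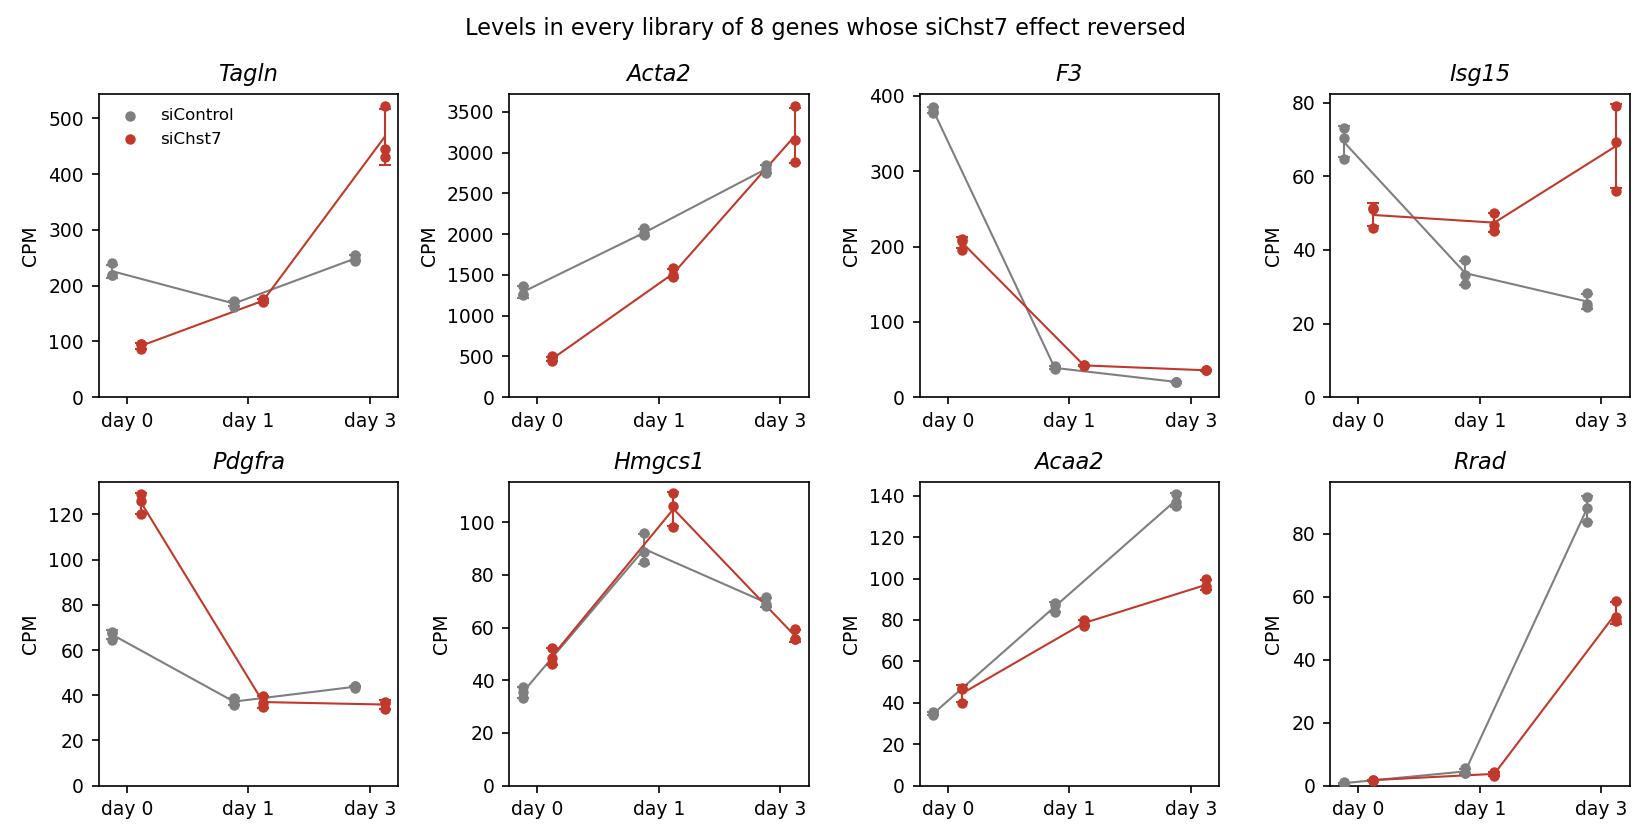
Level in CPM (vertical axis, from 0) of 8 reversing genes at days 0, 1 and 3, with a point for each library, lines through group means and bars of 1 SD (3 libraries per group; siControl grey, siChst7 red). In the upper row siChst7 is below siControl at day 0 and above it at day 3; in the lower row the order is the opposite.

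The gene of 1 natriuretic peptide, a hormone of stressed and embryonic heart muscle, was among the strongest reversals. Nppb (chromosome 4, 147985786 to 147987205) had 2.44, 2.99 and 3.19 CPM with siControl and 0.972, 1.13 and 1.32 CPM with siChst7 at day 0. The day 3 values were 20.0, 22.6 and 19.9 CPM against 56.5, 44.3 and 67.2 CPM. Both groups were higher at day 3, with siChst7 below the controls at day 0 and above them at day 3, and the difference was 2.76 ± 0.24 (edgeR adjusted p = 2.38e-08). Ankrd1, a stretch-induced nuclear and sarcomeric protein, had 416, 411 and 425 CPM against 229, 249 and 241 CPM at day 0. By day 3 it had 595, 605 and 588 CPM against 881, 772 and 910 CPM, and its difference was 1.32 ± 0.07. Nppa reversed as well, with a difference of 2.62, but the naming rule did not take it among the largest differences. Its mean was therefore below 5 CPM or its groups overlapped at both days.

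Of the 12 tested cardiac transcription and secreted factors, which include these genes, 5 were called higher and 1 lower, and of 14 genes of ion handling 1 was higher and 2 lower. The 1 higher was Jph2, which ties the sarcoplasmic reticulum to the cell membrane. It was a reversal, near the floor at day 0, at 0.254, 0.354 and 0.535 CPM against 0.0793, 0.0452 and 0.0465 CPM, and at 122, 115 and 117 CPM against 128, 154 and 136 CPM at day 3. Its difference of 2.90 ± 0.43 therefore rests on low day 0 counts. Gja1, the gap junction protein connexin 43, had a difference of -0.43 ± 0.06 and Kcnj2, a potassium channel, of -0.88 ± 0.13. Atp2a2 and Casq2 had none called, at -0.09 ± 0.07 and -0.36 ± 0.88. Among 27 sarcomere genes 8 were called higher and 2 lower, and 17 neither, with a median difference of 0.56, or 0.21 with length correction. Without siControl replicate 1 of day 0, 5 were called higher. Over all genes tested 20.7% were called higher and 18.1% lower. Ldb3, a protein of the Z disc, was lower at both days, at -1.08 and -0.17, a difference of 0.91 ± 0.19 from day 0 levels below 1 CPM. Tnnt2, cardiac troponin T, had 10.1, 9.94 and 8.92 CPM against 20.4, 21.5 and 20.5 CPM at day 0 and 703, 654 and 683 CPM against 861, 736 and 849 CPM at day 3. Its effect shrank from 1.11 to 0.26 while staying above 0, a difference of -0.85 ± 0.11.

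Transcripts of the 3 reprogramming factors, delivered and own copies together, had a lower siChst7 effect at day 3. Mef2c had 46.9, 49.2 and 45.2 CPM against 45.2, 46.2 and 49.9 CPM at day 0. Its day 3 levels were 326, 321 and 320 CPM against 250, 266 and 231 CPM. The groups overlapped at day 0 and siChst7 was below all controls at day 3, with a difference of -0.37 ± 0.07 (edgeR adjusted p = 0.000222). For Gata4 and Tbx5 the differences were -0.22 ± 0.07 and -0.20 ± 0.07 (edgeR adjusted p = 0.0202 and 0.0234). Leaving out replicate 3 of siChst7 or of siControl at day 0 ended both of these calls, at -0.17 and -0.13 without the former. Leaving out siControl replicate 1 of day 3 ended that of Gata4.

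Further reversals from lower to higher belonged to no list. F3 encodes tissue factor, which starts blood coagulation (chromosome 3, 121723537 to 121735052). It had 380, 378 and 385 CPM against 196, 210 and 208 CPM at day 0 and 20.1, 20.5 and 20.0 CPM against 35.6, 36.1 and 35.5 CPM at day 3. The libraries of a group lay close together at both days, and the difference was 1.72 ± 0.06 (edgeR adjusted p = 2.28e-14). Fam150a, which encodes a ligand of the receptor tyrosine kinase ALK, had 38, 39.6 and 42.3 CPM against 19.9, 18.7 and 17.0 CPM at day 0. Its day 3 values were 33.1, 31.4 and 33.1 CPM against 55.8, 48.6 and 57.0 CPM. For Siglecg, a sialic acid binding lectin, and Tmem171 the effects were -0.71 and 0.73, and -0.77 and 0.68. Glipr1 went from -1.34 to 1.05 and Ccdc68, a centriole protein, from -1.36 to 1.33, both from low day 0 counts. Ccdc68 was no reversal when siChst7 replicate 3 of day 0 and replicate 1 of day 3 were both left out.

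Interferon-stimulated genes had the largest median difference of the 23 pathway lists, 0.92, against 0.96 for the 5 genes of the RNA quality list. Few were called at day 0 and most at day 3. At day 0, 2 of 47 tested genes were higher and 4 lower. At day 1, 31 were higher and 0 lower, with a median effect of 0.43, and at day 3, 40 higher and 1 lower, with a median of 0.92. The difference was called higher for 38 genes and lower for 1, which was Irf1, and for the same numbers with length correction, at a median of 0.73. Among all genes tested, 20.7% were called higher and 18.1% lower without the correction. All 3 siChst7 libraries of day 3 were above all controls for 37 of the 38, as they were for 2037 of all 2853 genes called higher. Trim25, a ubiquitin ligase, had no called difference, at 0.13 ± 0.09.

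Isg15, an interferon-induced ubiquitin-like protein, had 73.0, 70.4 and 64.8 CPM against 51.2, 45.9 and 51.4 CPM at day 0 (chromosome 4, 156199424 to 156200818). Day 3 gave 28.2, 24.4 and 25.3 CPM against 69.4, 56.1 and 79.1 CPM. The siControl level was lower at day 3 than at day 0 and the siChst7 level was not, and the groups did not overlap at either day. At day 1 siChst7 was already above siControl, at 50.1, 46.8 and 45.2 CPM against 30.7, 33.2 and 37.3 CPM. Its difference between day 3 and day 0 was 1.88 ± 0.13 (edgeR adjusted p = 1.26e-09). Ifit1, which binds foreign RNA, had 63.3, 64.4 and 61.4 CPM against 50.3, 53.3 and 55.7 CPM at day 0, an effect of -0.25 that was not called. The day 3 values were 14.9, 17.0 and 16.9 CPM against 43.1, 30.2 and 45.1 CPM, and the difference was 1.51 ± 0.15. Bst2, an antiviral membrane tether, went from an effect of -0.12 to 0.94, a difference of 1.05 that was 0.51 with length correction. The reversals of the list were Isg15, Usp18, Ifi35 and Ifih1.

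The interferon-stimulated response element was searched as GAAANNGAAA on both strands in the same windows. It was present in 385 of 10511 tested genes (3.66%) and in 20 of the 35 interferon genes with a window (57.1%), of which 19 had a difference called higher. Among reversals it was present in 14 of 260 from lower to higher (5.38%) and in 8 of 406 from higher to lower (1.97%). The promoters of Isg15, Ifit1 and Rsad2 were picked as examples with a match and a difference above 1. Bst2, at 1.05, also had a match and is not shown. Matches, on either strand, are in capitals. The stretches lie on GRCm38 at chr4:156200845-156200926 (minus strand), chr19:34640755-34640843 (plus) and chr12:26456533-26456602 (minus). Rsad2, the antiviral enzyme viperin, had a difference of 1.14.
Isg15: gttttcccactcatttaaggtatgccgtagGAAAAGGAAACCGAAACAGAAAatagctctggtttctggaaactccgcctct
Ifit1: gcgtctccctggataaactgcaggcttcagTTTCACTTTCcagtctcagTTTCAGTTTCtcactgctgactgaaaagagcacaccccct
Rsad2: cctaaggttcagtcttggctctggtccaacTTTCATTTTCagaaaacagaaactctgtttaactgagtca
Isg15 holds 3 overlapping matches, Ifit1 holds 2 that do not overlap, on the other strand, and Rsad2 holds 1.

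Of 32 tested chemokines and other inflammatory and matrix protease genes, 13 were called higher, 3 lower and 16 neither, and the median difference was 0.42 (0.25 with length correction, with 11 higher and 4 lower). Without that correction, 20.7% of all genes tested were called higher and 18.1% lower. Ccl2, which attracts monocytes, had 795, 874 and 890 CPM against 995, 1020 and 906 CPM at day 0 and 15.9, 15.2 and 17.7 CPM against 74.7, 46.9 and 78.8 CPM at day 3. Its level was far lower at day 3 in both groups, less so with siChst7, and the difference was 1.84 ± 0.17 (edgeR adjusted p = 4.92e-08). Ccl7, a related chemokine, had effects of 0.47 and 1.97. Ptgs2, the inducible cyclooxygenase, reversed, with 344, 353 and 358 CPM against 258, 267 and 261 CPM at day 0 and 34.0, 38.4 and 35.1 CPM against 69.5, 60.4 and 71.1 CPM at day 3. Saa3, an acute phase protein, went from 0.04 to 1.42, a difference of 1.38 that was 0.64 with length correction, and Csf1 and Mmp3 had no called difference, at -0.03 ± 0.06 and 0.01 ± 0.19.

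Of the 6 macrophage and leukocyte markers tested, 0 had a difference called higher and 1 lower. Over all genes tested the shares were 20.7% and 18.1%, and 6 genes are too few to set against them. The summed level of all 12 on the list was 49.0 to 54.3 CPM with siControl and 62.1 to 66.3 CPM with siChst7 at day 0, and 28.2 to 30.1 CPM and 26.4 to 30.5 CPM at day 3. C1qb and C1qc had 0 counts in all 4 groups. The libraries of siChst7 at day 3 were not alike in the genes that were higher. Replicate 2 was the lowest of the 3 in 2184 of the 2853 genes called higher, in 21 of the 38 interferon genes and in 10 of the 13 inflammatory genes. In the 15 contractile genes it was the lowest in 5, and in the 17 SRF and YAP targets in 4. These 2 lists had another order. Replicate 1 was the lowest in 9 of the 15 and 12 of the 17, beside 322 of the 2853 genes. Replicate 2 was the highest in 8 and 12, beside 400 of the 2853. The part of either order in the results was not tested.

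**Figure D4:**
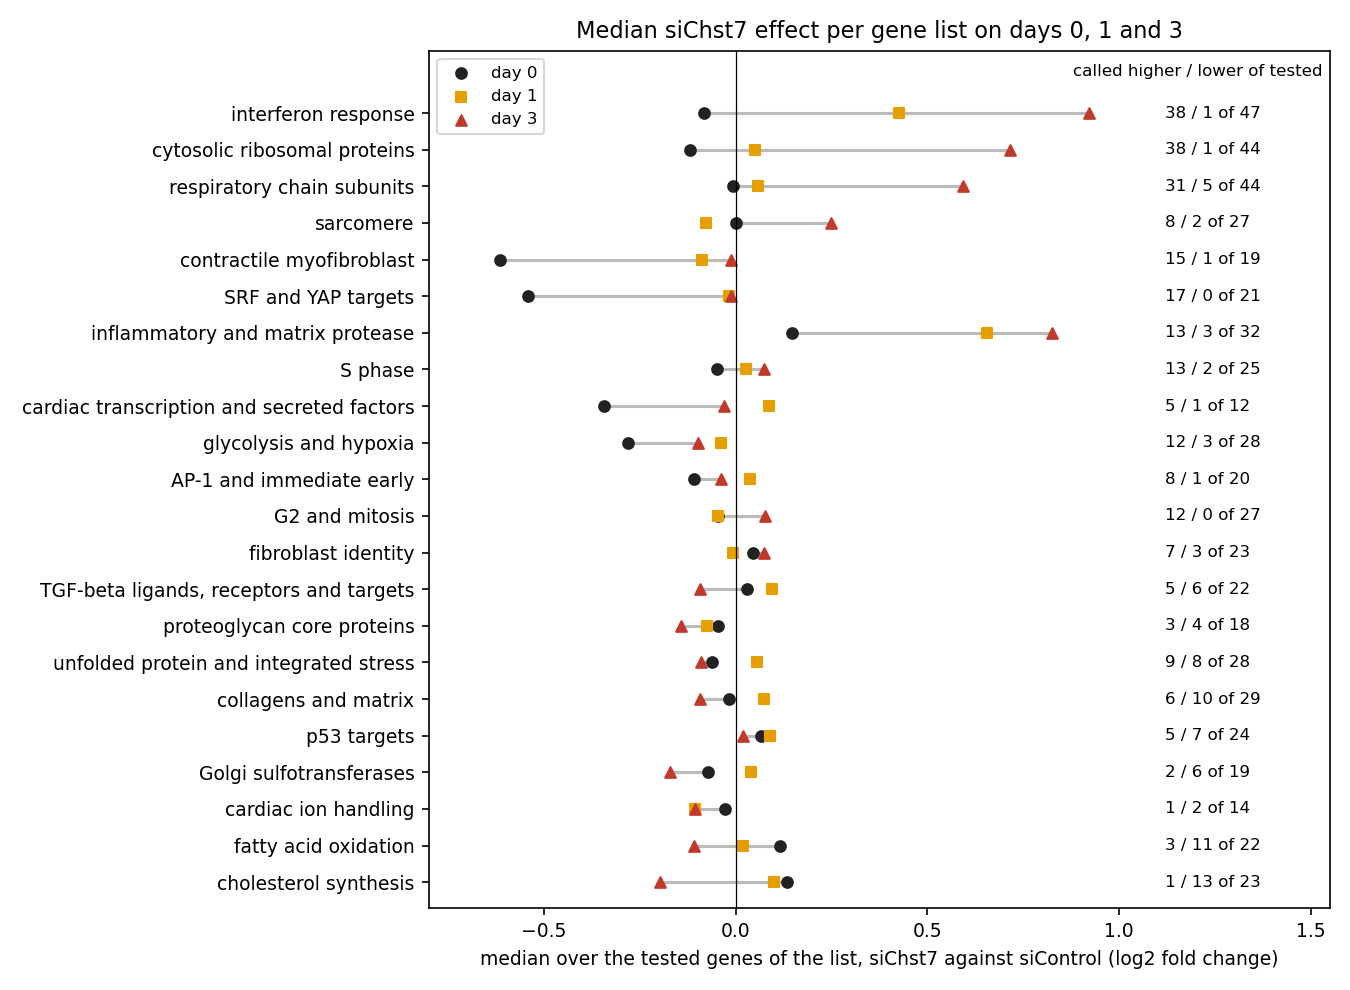
Median siChst7 effect (log2 fold change against siControl of the same day, horizontal axis) over the tested genes of each of 22 gene lists at day 0 (circles), day 1 (squares) and day 3 (triangles), with the number of genes whose difference between day 3 and day 0 was called higher and lower at the right. The contractile and the SRF and YAP lists start near -0.61 and -0.54 and end near 0, the interferon list starts near 0 and ends at 0.92, and the cholesterol list crosses 0 downward.

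Ribosomal protein and respiratory chain genes were called higher at day 3 in most cases, and the counts were smaller with length correction. Of 44 cytosolic ribosomal protein genes, 38 were called higher and 1 lower, with a median of 0.86, which became 23, 7 and 0.25 with length correction. Of 44 respiratory chain genes, 31 were higher and 5 lower, with a median of 0.56, which became 14, 17 and -0.03. For all genes tested the shares were 20.7% higher and 18.1% lower without the correction. In all 38 ribosomal and all 31 respiratory chain genes called higher, replicate 2 of siChst7 at day 3 was the lowest of the 3 libraries. Rps24, for example, had 287, 289 and 289 CPM with siControl at day 3 and 712, 476 and 798 CPM with siChst7, and Cox7c had 79.4, 81.5 and 82.2 CPM against 194, 147 and 234 CPM. Rplp0 and Cox4i1, of the same machines, had no called difference, at 0.10 ± 0.08 and -0.15 ± 0.07, but were called lower with length correction, at -0.13 and -0.67. Cox4i1 was called lower in 12 of 23 alternatives, and Rplp0 was called higher, at 0.18, without siChst7 replicate 2 of day 3.

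Cell cycle genes had smaller medians. Of 25 S phase genes 13 were called higher and 2 lower, and of 27 genes of G2 and mitosis 12 were higher and 0 lower, while the medians were 0.22 and 0.09. Beside them, 20.7% of all genes tested were called higher and 18.1% lower. Cdk1, the mitotic kinase, had 294, 303 and 320 CPM against 295, 305 and 262 CPM at day 0 and 236, 239 and 242 CPM against 361, 289 and 402 CPM at day 3. The groups overlapped at day 0 and not at day 3, and the difference was 0.64 ± 0.11. Gins2 and Prim1, of the replication machinery, reversed, at -0.28 and 0.28, and at -0.27 and 0.48, but Gins2 was no reversal with length correction and Prim1 in 11 of 23 alternatives. Mki67 and Top2a, markers of cycling cells, had no called difference, at -0.12 ± 0.06 and 0.05 ± 0.06. Replicate 2 of siChst7 at day 3 was the lowest in 12 of the 13 and in 11 of the 12 genes called higher.

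Receptors for platelet-derived growth factor, which mark fibroblasts, were reversals in the other direction. Pdgfra (chromosome 5, 75151322 to 75198206) had 67.7, 68.2 and 64.6 CPM with siControl and 126, 120 and 129 CPM with siChst7 at day 0. By day 3 it had 43.4, 44.0 and 43.9 CPM against 33.8, 36.8 and 37.0 CPM. The difference was -1.19 ± 0.07 (edgeR adjusted p = 1.62e-10), and at day 1 the groups overlapped. Pdgfrb had 113, 116 and 112 CPM against 194, 192 and 210 CPM at day 0 and 109, 112 and 112 CPM against 95.6, 99.0 and 96.6 CPM at day 3, and its siControl level hardly moved between these days. Its difference was -1.00 ± 0.06 (edgeR adjusted p = 3.46e-11).

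The fibroblast identity list as a whole split. Of 23 tested genes, 7 were called higher, 3 lower and 13 neither, beside 20.7% higher and 18.1% lower of all genes tested. S100a4, a calcium-binding protein, went from 0.23 to 1.29, with a difference of 1.06 ± 0.15 that was 0.27 with length correction. Its call and that of the surface protein Ly6a, with 1.03 ± 0.20, held under all alternatives, but the number called higher was 3 with libraries scaled by totals and 4 in a fit of the 12 libraries of days 0 and 3. Ddr2 and Prrx1 had none called, at 0.11 ± 0.05 and 0.02 ± 0.06.

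Collagens and matrix genes were divided too, with 6 of 29 called higher, 10 lower and 13 neither. The shares over all genes tested were 20.7% higher and 18.1% lower. Sparc, a collagen-binding matrix protein, reversed from 1050, 1040 and 1050 CPM against 1150, 1150 and 1210 CPM to 2450, 2340 and 2520 CPM against 1750, 1920 and 1780 CPM, a difference of -0.59 ± 0.06. Col5a2 was not called at day 0 and higher at day 3, with a difference of 0.45 ± 0.06. Lox, which cross-links collagen, was lower at both days, at -0.60 and -0.12, and Col12a1 went from -0.77 to -0.09. Col4a1 and Col4a2, of basement membranes, had no called difference, at 0.05 ± 0.07 and -0.01 ± 0.07.

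Genes of cholesterol synthesis had more calls higher at day 0 and more calls lower at day 3. At day 0, 9 of 23 tested genes were called higher and 0 lower, at day 1, 6 higher and 0 lower, and at day 3, 3 higher and 13 lower. The difference was called lower for 13 and higher for 1 (Msmo1), with a median of -0.30. With length correction 16 were lower. The shares of all genes tested, without the correction, were 18.1% lower and 20.7% higher. The 6 reversals included Hmgcs1, Mvd, Dhcr7, Insig1 and Srebf2. For 11 of the 13 genes all siChst7 libraries of day 3 were below all controls, as they were for 1721 of all 2503 genes called lower.

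Hmgcs1, the cytosolic HMG-CoA synthase, had 33.4, 37.4 and 35.4 CPM with siControl and 46.0, 52.3 and 48.6 CPM with siChst7 at day 0 (chromosome 13, 119690351 to 119708260). Its day 3 values were 69, 71.6 and 68.0 CPM against 55.5, 59.3 and 55.6 CPM. The order of the groups changed without overlap at either day, and the difference was -0.76 ± 0.09 (edgeR adjusted p = 7.76e-07). Mvd, mevalonate diphosphate decarboxylase, went from 0.57 to -0.26, and Srebf2, the transcription factor that turns these genes on, from 0.21 to -0.32. Insig1, which holds SREBP in the endoplasmic reticulum, had 21.0, 22.5 and 24.2 CPM against 34.0, 35.4 and 33.1 CPM at day 0 and 43.8, 53.2 and 48.5 CPM against 41.3, 45.1 and 36.0 CPM at day 3. Its groups overlapped at day 3, and it was no reversal without siControl replicate 2 of day 3. Fdft1 and Sc5d had no called difference, at -0.21 ± 0.10 and -0.16 ± 0.09, but were called lower in 10 and 5 of 23 alternatives. The sterol regulatory element core CACCCCAC, searched on both strands, was in 1 of 16 cholesterol genes with a window, Hmgcs1, and in 406 of 10511 tested genes (3.86%).

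Of 22 tested genes of fatty acid oxidation, 11 had a difference called lower, 3 higher and 8 neither, with a median of -0.23 and 13 lower and 1 higher with length correction. Without it, 18.1% of all genes tested were called lower and 20.7% higher. Acaa2, the last enzyme of the mitochondrial beta-oxidation cycle, had 34.7, 35.4 and 34.0 CPM against 47.3, 46.8 and 39.8 CPM at day 0. Its day 3 levels were 141, 135 and 137 CPM against 99.7, 94.9 and 96.2 CPM. Both groups were higher at day 3, with siChst7 above the controls at day 0 and below them at day 3, and the difference was -0.87 ± 0.07 (edgeR adjusted p = 2.08e-08). Cpt1a, which brings fatty acids into mitochondria, had 82.7, 83.7 and 85.9 CPM against 103, 103 and 109 CPM at day 0 and 88.9, 91.6 and 92.1 CPM against 67.0, 75.8 and 69 CPM at day 3. The other reversals of the list were Acadvl, Hadha and Ucp2. Acadl and Hadhb had no called difference, at -0.06 ± 0.06 and 0.29 ± 0.13.

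Ppargc1a, the coactivator that drives mitochondrial genes, had one of the largest lower differences, -1.78 ± 0.16 (edgeR adjusted p = 6.55e-08). It had 3.99, 4.72 and 4.50 CPM against 12.3, 11.7 and 13.0 CPM at day 0 and 15.8, 15.6 and 17.3 CPM against 11.6, 11.7 and 16.7 CPM at day 3. The groups overlapped at day 3 through replicate 3 of siChst7, and its day 3 effect of -0.29 ± 0.11 lost its call in 6 of 23 alternatives. The difference between the days kept its call in all of them.

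Reversals from higher to lower outside the lists included signalling and sorting genes. Rrad, a small GTPase that holds back voltage-gated calcium channels, had 1.01, 0.664 and 0.713 CPM against 1.80, 1.88 and 1.60 CPM at day 0. Day 3 gave 88.2, 83.8 and 91.9 CPM against 53.5, 58.7 and 52.2 CPM, higher than at day 0 in both groups and without overlap between them. The difference was -1.83 ± 0.21 (edgeR adjusted p = 9.90e-07). Sorcs2, a sorting receptor, had 11.7, 13.2 and 11.9 CPM against 23.6, 21.3 and 23.5 CPM at day 0 and 69.8, 58.8 and 66.7 CPM against 43.6, 43.0 and 40.8 CPM at day 3, without overlap at either day. Ism1, a secreted protein, went from 1.28 to -0.59 and was already lower at day 1, at -0.37. Dock8, an activator of small GTPases, went from 0.75 to -0.58. Nr4a3, an orphan nuclear receptor, went from 0.91 to -0.65 and Rnf122, a RING finger protein, from 0.84 to -0.71, both from low day 0 counts. Csdc2, an RNA-binding protein, had 0.115, 0.0886 and 0.0446 CPM against 0.159, 0.181 and 0.279 CPM at day 0, and its reversal was lost in 4 of 23 alternatives.

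Several of the remaining genes with the largest differences had low counts at 1 of the days. Defb48, a defensin, had 11.6, 10.4 and 10.7 CPM against 8.88, 8.98 and 8.90 CPM at day 0 and 1.27, 1.02 and 1.10 CPM against 7.12, 4.72 and 5.70 CPM at day 3, and its difference was 2.66 ± 0.22. Ccl5, a chemokine of the interferon list, likewise had a difference of 2.65 ± 0.25 and Cxcl5 of 2.57 ± 0.45, the latter at 0.0847, 0.127 and 0.0459 CPM against 0.929, 0.36 and 0.58 CPM at day 3. Mybph, a myosin-binding protein, had 0 counts in all siControl libraries of day 0 against 0.0793, 0.0905 and 0.0697 CPM, so that no fold is given for that day. Afap1l2 and Lama2, a laminin chain, had differences of -2.76 ± 0.94 and -1.71 ± 0.55 from day 0 levels below 0.3 CPM. The call of Afap1l2 was lost without siChst7 replicate 2 or siControl replicate 1 or 3 of day 0, and that of Lama2 without siChst7 replicate 3 or siControl replicate 1 or 3 of day 0. Ptprv, a receptor-type phosphatase, went from 1.71 to 0.11, with a difference of -1.61 ± 0.23.

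Among the other sulfotransferases of the Golgi, which act on chondroitin or heparan sulfate, other sugar chains or protein tyrosines, 1 was called higher and 6 lower of 18 tested. The number called lower was 3 without siControl replicate 3 of day 3, 9 without siChst7 replicate 2 of day 3 and 10 with libraries scaled by totals. Over all genes tested the shares were 20.7% higher and 18.1% lower. Hs6st2, a heparan sulfate 6-O-sulfotransferase, had 252, 252 and 251 CPM against 208, 209 and 226 CPM at day 0 and 147, 142 and 140 CPM against 170, 175 and 178 CPM at day 3. It reversed from lower to higher, with a difference of 0.51 ± 0.06 (edgeR adjusted p = 8.04e-07). Ndst1, which starts heparan sulfate modification, and Chst2 reversed the other way, at 0.26 and -0.12, and at 0.33 and -0.36. Ndst1 was a reversal in 15 of 23 alternatives and Chst2 in 16. Tpst2 and Hs2st1 had no called difference, at 0.00 ± 0.07 and -0.07 ± 0.08.

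Proteoglycan core proteins carry chondroitin or heparan sulfate. Of 18 tested, 3 were called higher, 4 lower and 11 neither, beside 20.7% higher and 18.1% lower of all genes tested. The number called higher was 1 without siChst7 replicate 3 of day 3 and 6 without replicate 2. Gpc1, a glypican, had 295, 282 and 281 CPM against 356, 345 and 363 CPM at day 0 and 189, 178 and 198 CPM against 145, 157 and 135 CPM at day 3, a reversal with a difference of -0.68 ± 0.07 (edgeR adjusted p = 2.14e-07). Sdc2, a syndecan, went from -0.42 to 0.10, and Sdc1 from 0.03 to -0.27. Sdc4 was lower at both days, at -0.40 and -0.20, and its difference of 0.19 ± 0.05 lost its call without siChst7 replicate 3 of day 3 and under 4 other settings. Hspg2 (perlecan) and Cd44 had none called, at 0.00 ± 0.07 and 0.12 ± 0.05.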

How the data were processed

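Bulk poly-A RNA-seq of 18 libraries was deposited by the authors as 1 table of raw read counts (whole numbers, no scaling) with a gene length column. HISAT2, featureCounts of Subread, DESeq2 and the build mm10 are named as the authors' in the submitters' processing notes; not given in the sources used here are versions, strand setting, annotation release and the treatment of reads with several matches, so counts of near-identical or overlapping genes (such as Ifit3 and Ifit3b) are uncertain.

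Counts were tested in R 4.3.3 with edgeR 4.0.16: filterByExpr, TMM scaling and 1 quasi-likelihood fit of 6 groups and 18 libraries with 12 residual degrees of freedom and no covariate. A gene was called at a Benjamini-Hochberg adjusted p below 0.05 over all 13802 genes tested; tests were two-sided, and standard errors were worked back from the F statistic. With 3 samples per group, p-values measure the spread between samples, pooled over the 6 groups. The siChst7 libraries of day 3 were the least alike, so the pooled spread can be too small for that group. Without siChst7 replicate 2 of day 3, genes called at day 0 rose from 3785 to 4803 and at day 1 from 2426 to 3378. A reversal was a gene called at day 0 and at day 3 with opposite signs and a called difference. The script was checked on simulated data. These had the same spread in all groups and lacked the gene-length trend of siChst7 at day 3, so the check does not cover those features. Alternatives were other scalings, filters, DESeq2 1.42.0, fewer libraries, the replicate block and a lowess correction for gene length (span 0.3).

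The rule for naming took Chst7 and the 3 delivered factors first. It added, each way and at a mean of at least 5 CPM, the 8 largest called differences whose groups did not overlap at day 0 or at day 3, and the 8 reversals whose smaller effect was largest, leaving out predicted genes, pseudogenes and date-like symbols. Lists with at least 3 called members gave at most 4 of these, by p, and at most 2 uncalled ones, by mean CPM. Some genes the rule takes are not reported here. Other list members named as reversed or as single exceptions, and the promoters shown, were chosen after their values were seen. Members, the 31 lists and tests were chosen with earlier results of these data known. Coordinates and promoter windows are RefSeq's on GRCm38, 1-based, and 23591 symbols (96.2%) matched.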

Additional observations from a re-analysis of the deposited data

Results flagged for a closer look

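The siChst7 effect differed between day 0 and day 3 for 5356 genes by the test of the difference itself, and 874 of these had opposite called effects at the 2 days. Every called difference meets the same criterion. Among reversals with a mean of at least 5 CPM, those whose smaller effect was largest had these differences on the log2 scale. From lower to higher they were Nppb (2.76), Ccdc68 (2.69), Glipr1 (2.39), Tagln (2.20), Fam150a (1.83), F3 (1.72), Tmem171 (1.45) and Siglecg (1.44). From higher to lower they were Csdc2 (-1.97), Ism1 (-1.87), Rrad (-1.83), Nr4a3 (-1.57), Rnf122 (-1.55), Sorcs2 (-1.51) and Dock8 (-1.33).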

How the results depend on the processing

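Over 23 alternatives the genes with a called difference numbered 4372 to 6503. Those that changed by at least 1 on the log2 scale were 599 in the main fit and 313 to 841 over the alternatives. Reversals numbered 606 to 1439 (624 to 1439 when single libraries were left out, the highest without siChst7 replicate 2 of day 3). Both effects were at least 0.5 for 56 in the main fit and for 28 to 69 over the alternatives. Those from lower to higher numbered 221 to 695 without single libraries, 191 with scaling by library totals, 202 in a fit of the 12 libraries of days 0 and 3, and 221 without siChst7 replicate 3 of day 0 and replicate 1 of day 3. Scaling by totals also gave 3780 genes called lower and 905 reversals from higher to lower. With gene-length correction the values of 2 uncalled ribosomal genes turned, Rplp0 to -0.13 and Rpl8 to -0.43, also with the replicate block; the cause was not tested. Of 18 same-numbered pairs of libraries 1 correlated above 0.1 (range -0.4 to 0.18). A cut of 0.1 cannot exclude weaker pairing by replicate number. The replicate block gave 5208 called genes and 816 reversals, and 5216 and 922 with gene-length correction.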

Other observations

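Of 28 genes of glycolysis and hypoxia, 17 were called lower with siChst7 at day 0 and 1 higher, against 12 lower and 3 higher at day 3, and the difference was called higher for 12 and lower for 3. It was called higher for 20.7% and lower for 18.1% of all genes tested. Bnip3, a hypoxia-induced mitophagy receptor, had 27.5, 32.7 and 31.9 CPM against 20.3, 19.9 and 16.2 CPM at day 0 and 18.7, 19.8 and 18.8 CPM against 30.7, 23.9 and 32.3 CPM at day 3, a reversal with a difference of 1.30 ± 0.14. Pgk1 reversed too, at -0.41 and 0.20, though not with length correction or without siChst7 replicate 3 of day 3, while Pfkl and Eno3 stayed lower at both days, at -0.73 and -0.19, and at -0.66 and -0.12. Pkm and Aldoa had no called difference, at -0.14 ± 0.08 and -0.01 ± 0.05.

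Of 28 genes of the unfolded protein and integrated stress responses 9 were called higher and 8 lower: Atf4, the main transcription factor of the integrated response, went from -0.49 to 0.03, while Ddit4, an inhibitor of mTOR signalling, went from 0.95 to 0.06 and the chaperone Calr reversed from 0.15 to -0.35. Of 24 p53 targets 5 were higher (1 to 5 over the alternatives) and 7 lower, with Trp53inp1 going from 1.21 to 0.37. Beside these counts, 20.7% of all genes tested were called higher and 18.1% lower. Of 20 immediate early genes 8 were higher and 1 lower, and that 1 was Klf4, which reversed from 0.31 to -0.23, whereas Klf2 went from -0.82 to -0.20 and Dusp1 from -0.65 to 0.03.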
